A study of Mus musculus with 16 samples.

Results

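Livers lacking the bile acid receptor FXR were compared with wild-type livers in mice of 3 weeks, on 4 of the 16 arrays of a series that also covered SHP-/- and FXR/SHP double-knockout mice and a second age of 5 weeks. The arrays were chosen by their labels alone. They were 2 arrays of liver RNA from FXR-/- mice and 2 arrays from wild-type mice, all 3 weeks old, labelled male and fed normal chow, and all 4 lay on 1 slide of Illumina mouse Ref-8 bead arrays. The FXR-/- line had been backcrossed to make it congenic with C57BL/6, whereas the wild-type C57BL/6 mice were purchased, so genotype and colony of origin cannot be told apart. The labels name no transgene and no other treatment. Reading the comparison also used 2 arrays each of FXR-/- and wild-type mice of 5 weeks, and of FXR/SHP double-knockout and SHP-/- mice of 3 weeks. The double knockouts came from crossing the congenic single knockouts, all of these mice were labelled male, and the 5-week arrays lay on another slide. Nothing in the labels states that the duplicates came from different animals. The spread behind each p-value is therefore that of duplicate arrays alone and may be technical.

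FXR, the product of Nr1h4, is a nuclear receptor that binds bile acids and is expressed in liver and intestine. In hepatocytes it induces the repressor SHP (Nr0b2), which lowers transcription of the bile acid synthesis genes Cyp7a1 and Cyp8b1, and it induces the pumps that carry bile salts into bile and back to blood. In the ileum it induces the hormone FGF15, which reaches the liver and lowers Cyp7a1 through FGFR4 and its partner beta-klotho. FXR is also known to act on lipoprotein, triglyceride and acute phase genes.

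Each array carried 24613 probes, of which 9943 and 9988 were detected on the FXR-/- arrays and 9991 and 9769 on the wild-type arrays (detection p under 0.01), with a mean signal of 214.1 and 207.5 against 212.2 and 223.1. A probe entered the comparison when it was detected on both arrays of either group. This left 9994 probes (40.6%) and, with the brightest kept probe per gene, 7467 genes. Values are background-corrected, quantile-normalised log2 intensities. Differences are FXR-/- minus wild type, with the standard error after ± (n = 2 arrays in each group) and limma's adjusted p, called at 0.05. Over the tested genes the duplicates of FXR-/- liver correlated at 0.9963 and those of wild-type liver at 0.9962. The SD of the log2 difference was 0.166 between the FXR-/- duplicates and 0.169 between the wild-type duplicates, against 0.526 between the group means. Outside the 4 arrays, double-knockout replicate 2 stood apart at both ages by a biotin control signal of 1850.6 and 903.0, where the other arrays lay between 2834.2 and 3487.3.

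Loss of FXR went with higher levels of 951 genes (12.7% of those tested) and lower levels of 916 (12.3%), which is 25% of them in either direction. Of these, 331 genes changed at least 2-fold (4.43%), 180 of them higher and 151 lower, while 1083 of the called genes differed by less than 1.5-fold. The 2-fold count was 196 with a background offset of 50 and 161 with the authors' processed values. The 2 FXR-/- arrays lay wholly above or wholly below the 2 wild-type arrays for 4852 genes (64.98%). The median difference over all tested genes was -0.006 and the median standard error 0.121. With 1 array left out, 668 to 700 genes were higher and 584 to 633 lower. The lower count moved by over 1.5 times without wild-type replicate 1 (584), wild-type replicate 2 (608) or FXR-/- replicate 2 (595). With double-knockout replicate 2 left out of the shared estimate of the spread, 1195 genes were higher and 1217 lower.

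**Figure D1:**
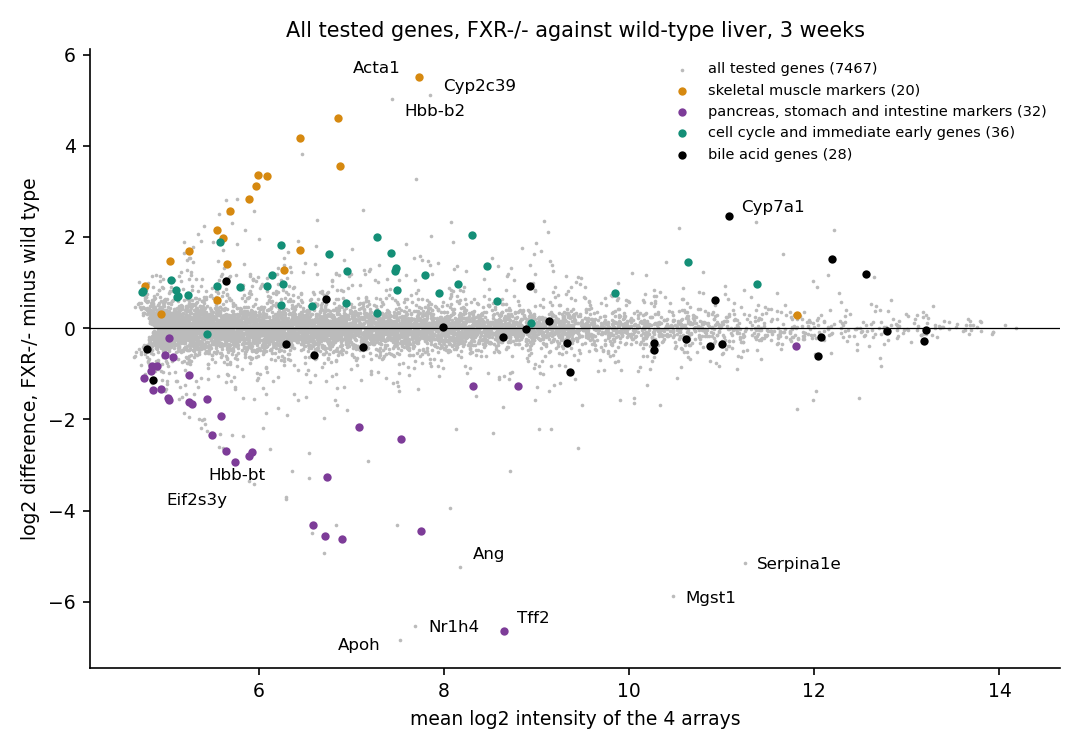
Each grey point is 1 of the 7467 tested genes, with the mean log2 intensity of the 4 arrays on the x axis and the log2 difference, FXR-/- minus wild type, on the y axis. Coloured points are members of the named gene lists. Skeletal muscle genes lie above 0, pancreas, stomach and intestine genes lie below 0, and Cyp7a1 stands highest among the bile acid genes at 2.45.

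The targeted receptor was read first. Nr1h4 had log2 intensities of 4.55 and 4.30 in FXR-/- liver against 10.98 and 10.92 in wild-type liver. The probe was not detected on either FXR-/- array and was bright on both wild-type arrays, at least 67.6-fold lower in FXR-/- liver (-6.53 ± 0.11, adjusted p = 3.5e-18). Such bounds set the brighter group's mean against the lowest level that the dim arrays could detect. Nr0b2, the gene of SHP, was below detection in both groups, so the main known mediator of FXR could not be read on this platform.

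Several markers set the groups apart in ways that the genotype labels do not describe. Eif2s3y, a translation factor gene on the Y chromosome, had log2 intensities of 4.30 and 4.18 in FXR-/- liver against 7.75 and 7.57 in wild-type liver. It was undetected on both FXR-/- arrays, which are labelled male, and at least 6.88-fold lower than in wild type (-3.42 ± 0.20, adjusted p = 2.3e-10). Kdm5d, a Y-linked histone demethylase, was also undetected on both FXR-/- arrays and at least 1.31-fold lower (-0.61 ± 0.13, adjusted p = 0.0023). Both measured Y-linked genes were thus undetected on arrays labelled male, and Uty, another, was below detection in both groups. At 5 weeks Eif2s3y was again lower in FXR-/- liver (-2.83 ± 0.20), while Kdm5d gave 0.30 ± 0.13 and did not pass. The X-linked Xist is not named among the probes used here.

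Transcripts of neighbouring tissues also differed. Of 27 skeletal muscle genes named on the array 20 were measured and all 20 were higher in FXR-/- liver, but 13 of them were undetected in wild type and could only differ upward. All 7 that were detected in both groups were higher too. Over the 20 genes the mean log2 level was 7.39 and 7.40 on the FXR-/- arrays against 5.01 and 5.09 on the wild-type arrays, and the summed raw signal was 8849.3 and 8608.2 against 3920.3 and 4578.0. Acta1, skeletal muscle actin, had log2 intensities of 10.47 and 10.50 in FXR-/- liver against 4.94 and 5.03 in wild-type liver (5.50 ± 0.09, adjusted p = 3.5e-18). Tnni2 and Atp2a1, a fast-muscle troponin and calcium pump, were undetected in wild type and at least 19.2-fold and 12.4-fold higher in FXR-/- liver. The muscle markers Myh4, Casq1, Des and Ryr1 were not detected on both arrays of either group.

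Genes of the exocrine pancreas and of the stomach and intestine went the other way. All 19 measured pancreas genes were lower in FXR-/- liver, but 14 of them were undetected there and could only differ downward. All 5 that were detected in both groups were lower too. Over the 19 genes the mean log2 level was 5.34 and 5.31 in FXR-/- liver against 7.40 and 7.40 in wild-type liver, with a summed signal of 4622.3 and 4030.5 against 8805.6 and 9060.3. Ctrb1, a chymotrypsinogen, was at least 17.4-fold lower, the pancreatic peptide gene Reg1 at least 20.04-fold lower, and Zg16, a secretory granule lectin, at least 14.6-fold lower, all 3 being undetected on both FXR-/- arrays. Of 13 measured stomach and intestine genes 12 were lower, but 9 of them were undetected in FXR-/- liver and could only differ downward. Of the 4 detected in both groups 3 were lower. Tff2, a mucus peptide of the stomach, had log2 intensities of 5.26 and 5.40 in FXR-/- liver against 11.97 and 11.97 in wild-type liver (-6.64 ± 0.14, adjusted p = 1.3e-16). The summed signal of that list was 616.5 and 622.9 in FXR-/- liver against 6234.3 and 6610.4 in wild-type liver.

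Of 14 measured hepatocyte genes, 0 were higher, 2 were lower (Ass1 and Serpina1a, of which Serpina1a lost its call when any of the 4 arrays was left out, at adjusted p 0.10 to 0.16) and 12 did not pass, with a mean log2 level of 12.33 on both FXR-/- arrays against 12.41 and 12.42 on the wild-type arrays. The probe of albumin, Alb, had log2 intensities of 4.96 and 5.08 in FXR-/- liver against 5.30 and 5.07 in wild-type liver, near the detection limit, and could not serve as a check. Ttr, the thyroxine carrier transthyretin, had log2 intensities of 13.36 and 13.43 in FXR-/- liver against 13.30 and 13.45 in wild-type liver (0.02 ± 0.09, adjusted p = 0.89). All 4 measured bile duct markers and all 4 measured lymphocyte markers failed to pass. The part that tissue carried along at dissection, sex and colony have in the results below was not tested. In bulk RNA, fewer cells of a type and less RNA per cell cannot be told apart.

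**Figure D2:**
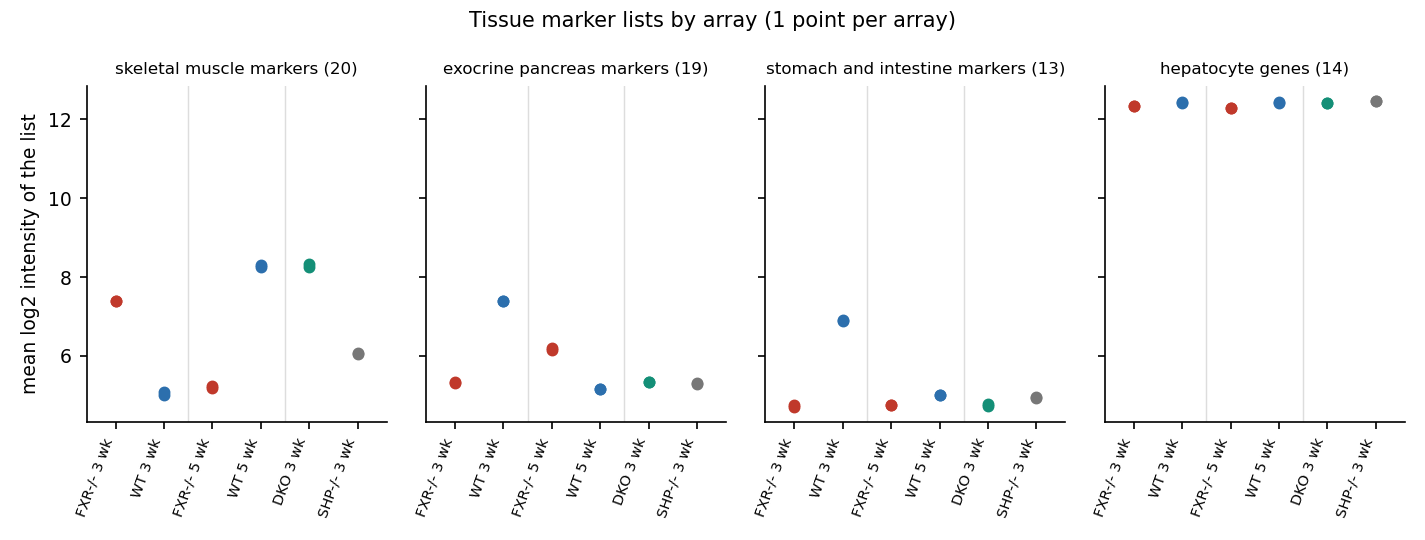
Mean log2 intensity of the measured genes of 4 marker lists, 1 point per array, in FXR-/- and wild-type liver at 3 weeks, the same genotypes at 5 weeks, and double-knockout and SHP-/- liver at 3 weeks. Muscle markers are high in FXR-/- liver at 3 weeks and low there at 5 weeks, pancreas and stomach markers are highest in wild-type liver at 3 weeks, and hepatocyte genes lie near 12.3 to 12.5 on every array.

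Bile acid synthesis changed at its entry step and at the branch to cholic acid. Cyp7a1, the rate-limiting enzyme of the classical pathway, had log2 intensities of 12.29 and 12.32 in FXR-/- liver against 9.91 and 9.80 in wild-type liver. Both FXR-/- arrays lay above both wild-type arrays (2.45 ± 0.10, adjusted p = 2.5e-12), and 64.98% of all tested genes had groups without overlap. Cyp8b1, the sterol 12-alpha-hydroxylase that sets the share of cholic acid, had log2 intensities of 13.15 and 13.15 in FXR-/- liver against 11.93 and 11.98 in wild-type liver and was likewise higher on both FXR-/- arrays (1.19 ± 0.08, adjusted p = 3.5e-09). Downstream enzymes moved little and downward. Cyp27a1, the mitochondrial side-chain hydroxylase, fell (-0.36 ± 0.08, adjusted p = 0.0032), as did the peroxisomal oxidase Acox2 (-0.39 ± 0.10, adjusted p = 0.0053) and the sterol carrier and thiolase gene Scp2 (-0.28 ± 0.07, adjusted p = 0.0066). Hsd3b7, the oxidoreductase that follows Cyp7a1, gave -0.06 ± 0.10, adjusted p = 0.70. Slc27a2, which activates the side chain, gave -0.20 ± 0.08, adjusted p = 0.084. Across the classical list 2 of 7 measured genes were higher, 3 were lower and 2 did not pass, with a median of -0.197.

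The calls on the small falls rested on single arrays. Without FXR-/- replicate 2 the adjusted p of Cyp27a1 was 0.054 and that of Scp2 0.06. Without FXR-/- replicate 1 that of Acox2 was 0.084, and without wild-type replicate 2 that of Scp2 was 0.075. Of the alternative pathway, Cyp7b1, an oxysterol 7-alpha-hydroxylase, gave 0.16 ± 0.12, adjusted p = 0.35 and Cyp2c70, the enzyme of muricholic acids in mice, gave -0.04 ± 0.07, adjusted p = 0.71. Cyp39a1, another oxysterol 7-alpha-hydroxylase, fell (-0.42 ± 0.12, adjusted p = 0.013), a call that was lost without wild-type replicate 1 (adjusted p 0.11) or FXR-/- replicate 1 (0.11).

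Conjugation and detoxification genes moved both ways. Sult2a2, a sulfotransferase for bile acids and steroids, had log2 intensities of 13.01 and 12.88 in FXR-/- liver against 11.43 and 11.44 in wild-type liver and rose (1.51 ± 0.10, adjusted p = 2.4e-09). Ephx1, the microsomal epoxide hydrolase, rose as well (0.62 ± 0.09, adjusted p = 5.8e-05). Slc27a5, the bile acid CoA ligase that precedes conjugation, had log2 intensities of 11.75 and 11.72 in FXR-/- liver against 12.35 and 12.35 in wild-type liver and fell (-0.61 ± 0.07, adjusted p = 4.8e-06). The amino acid transferase Baat, the next step, gave -0.20 ± 0.24, adjusted p = 0.61, with a standard error above the median of all genes.

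Canalicular export genes, which move lipids and bile salts into bile, were lower or did not pass. Abcb11, the bile salt export pump and a known FXR target, had log2 intensities of 8.82 and 8.93 in FXR-/- liver against 9.84 and 9.84 in wild-type liver and fell (-0.96 ± 0.09, adjusted p = 2.0e-07). Abcg5, a subunit of the sterol exporter, fell (-0.48 ± 0.09, adjusted p = 6.0e-04), whereas its partner Abcg8 gave 0.03 ± 0.09, adjusted p = 0.86. Abcc2, a conjugate pump, fell (-0.32 ± 0.08, adjusted p = 0.0077), but not without FXR-/- replicate 2 (adjusted p 0.062) or when a gene's probes were averaged (0.26). Abcb4, the phosphatidylcholine floppase, fell by a small amount (-0.23 ± 0.07, adjusted p = 0.025), and lost its call when any of the 4 arrays was left out (adjusted p 0.07 to 0.14).

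FXR binds an inverted repeat of hexamers 1 base apart, so the promoters of the bile acid genes and reported FXR targets were searched on both strands for the hexamer AGGTCA followed by any base and by its reverse complement, with at most 2 mismatches. Windows ran from 250 bases before to 50 after the start site in RefSeq (build GRCm38.p6), where 314 of 27025 windows (1.16%) held a match. Of 54 genes looked for, 40 had a window and 2 of those held the repeat, Abcb11 and Slco1b2. Both are shown as the only listed genes with a match. Abcb11 was lower in FXR-/- liver, and the uptake carrier Slco1b2 gave -0.02 ± 0.13, adjusted p = 0.95. The 250 bases before the start are given 5′ to 3′ on the gene's strand, and capitals mark the matched bases. Abcb11 lies on the minus strand at chr2:69342617-69342866 and holds matches that begin 94 bases (2 mismatches) and 63 bases (1 mismatch) before the start. Slco1b2 lies on the plus strand at chr6:141629268-141629517 and holds 1 that begins 88 bases before the start (1 mismatch).
Abcb11: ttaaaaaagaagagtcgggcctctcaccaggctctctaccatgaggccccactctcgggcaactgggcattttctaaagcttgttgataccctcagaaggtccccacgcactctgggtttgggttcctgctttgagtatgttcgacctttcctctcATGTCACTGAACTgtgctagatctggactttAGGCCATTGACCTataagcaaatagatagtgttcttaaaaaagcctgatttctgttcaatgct
Slco1b2: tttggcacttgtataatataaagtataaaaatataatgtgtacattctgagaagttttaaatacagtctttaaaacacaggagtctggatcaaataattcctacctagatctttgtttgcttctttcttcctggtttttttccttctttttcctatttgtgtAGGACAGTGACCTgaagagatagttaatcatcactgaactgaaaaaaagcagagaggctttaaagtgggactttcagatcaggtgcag
Short cores bound by LRH-1, which works with SHP on Cyp7a1, were searched exactly on both strands. AAGGTCA was in 4.66% of all windows, CAAGGTC in 3.96% of them and CAAGGCC in 6.21%. At least 1 core was in 3475 windows (12.86%) and in 9 of the 40 listed genes, among them Nr0b2, Abcc2 and Slc51a. The first and second cores overlap each other where both match, and the first holds the hexamer of the repeat. A match describes letters in the window and does not show binding, and Cyp7a1 had no window here.

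**Figure D3:**
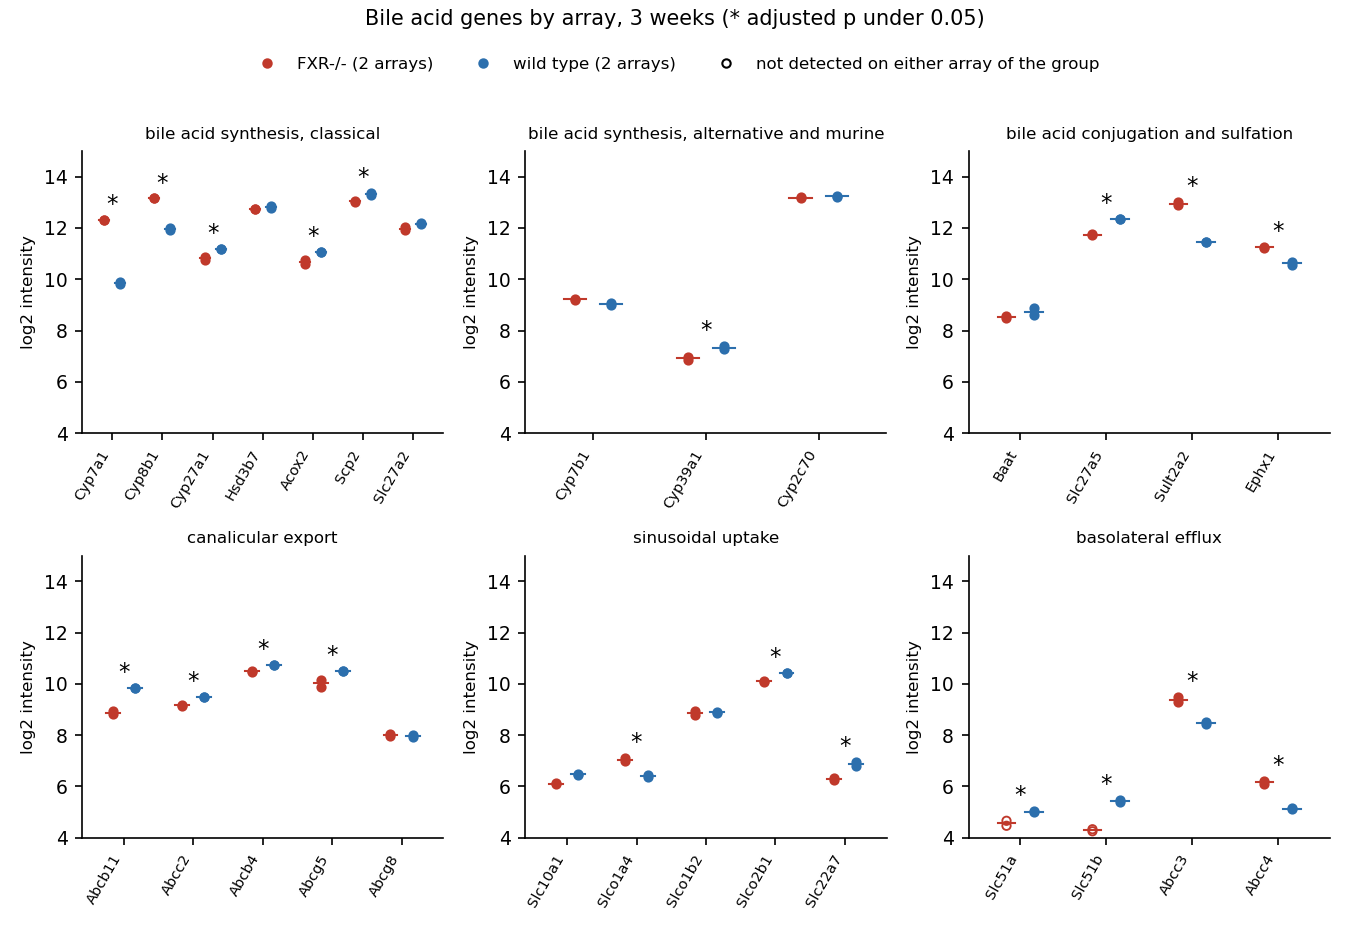
Log2 intensity of the 28 measured bile acid genes, with 1 point per array, FXR-/- in red left of wild type in blue, short lines at the group means, open circles where neither array of a group detected the gene, and asterisks at adjusted p under 0.05. Cyp7a1, Cyp8b1, Sult2a2, Ephx1, Slco1a4, Abcc3 and Abcc4 are higher in FXR-/- liver, and Abcb11 and Slc51b show the clearest falls among the transporters.

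Basolateral efflux split into the FXR-induced pair and the backup pumps. Slc51b, a subunit of the organic solute transporter that FXR is known to induce, had log2 intensities of 4.33 and 4.25 in FXR-/- liver against 5.40 and 5.46 in wild-type liver. It was undetected on both FXR-/- arrays and at least 1.47-fold lower (-1.14 ± 0.11, adjusted p = 2.7e-07). Slc51a, the other subunit, was undetected in FXR-/- liver and close to the limit in wild type, at least 1.10-fold lower (-0.45 ± 0.13, adjusted p = 0.018), and lost its call without wild-type replicate 1 (adjusted p 0.064), wild-type replicate 2 (0.091) or FXR-/- replicate 2 (0.16). Abcc3 and Abcc4, pumps that return bile salts to blood in cholestasis, rose. Abcc3 had log2 intensities of 9.29 and 9.49 in FXR-/- liver against 8.51 and 8.42 in wild-type liver (0.92 ± 0.10, adjusted p = 1.7e-06). Abcc4 had log2 intensities of 6.10 and 6.23 in FXR-/- liver against 5.11 and 5.14 in wild-type liver (1.04 ± 0.14, adjusted p = 1.9e-05).

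Sinusoidal uptake genes did not move together. Slco1a4, an organic anion carrier, rose (0.65 ± 0.15, adjusted p = 0.0043), and Slc22a7, the organic anion transporter OAT2, fell (-0.59 ± 0.12, adjusted p = 0.0011). Slco2b1 fell slightly (-0.32 ± 0.09, adjusted p = 0.017), and lost its call when any of the 4 arrays was left out (adjusted p 0.06 to 0.1). Slc10a1, the sodium-dependent bile salt uptake carrier, gave -0.36 ± 0.15, adjusted p = 0.085. Of the FGF15 receptor complex, Klb, beta-klotho, gave 0.19 ± 0.13, adjusted p = 0.32, and the co-receptor syndecan gene Sdc1 rose slightly (0.37 ± 0.10, adjusted p = 0.0094), but not without wild-type replicate 1 (adjusted p 0.1) or FXR-/- replicate 1 (0.08).

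Among 23 measured genes reported as FXR targets 4 were higher, 8 were lower and 11 did not pass, with a median of -0.169. Over all tested genes 12.7% were higher and 12.3% lower. Apoc2, the activator of lipoprotein lipase, had log2 intensities of 5.90 and 5.54 in FXR-/- liver against 8.63 and 8.62 in wild-type liver and fell (-2.91 ± 0.12, adjusted p = 2.3e-12). Vldlr, a receptor for triglyceride-rich lipoproteins, had log2 intensities of 8.44 and 8.42 in FXR-/- liver against 5.70 and 5.96 in wild-type liver and rose (2.60 ± 0.13, adjusted p = 2.3e-11). Both had wholly separate groups, as did 64.98% of all tested genes. Pdk4, the kinase that turns off pyruvate dehydrogenase, rose (1.24 ± 0.11, adjusted p = 1.1e-07). The list of reported targets does not state whether FXR raises or lowers each gene. Rises and falls were therefore not set against a direction. Of 21 lipoprotein and cholesterol transport genes 2 were higher, 5 lower and 14 not past the threshold, with a median of 0.0. Apoa4, a chylomicron apolipoprotein, rose (1.43 ± 0.12, adjusted p = 6.4e-08). Apoa2 read 14.18 on all 4 arrays, the top of the normalised scale, so no difference could be seen there.

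Apoh, which encodes beta-2-glycoprotein I, had log2 intensities of 4.11 and 4.11 in FXR-/- liver against 11.08 and 10.81 in wild-type liver, at least 67.1-fold lower in FXR-/- liver (-6.83 ± 1.28, adjusted p = 5.7e-04). The FXR-/- arrays gave raw signals of 11 and 10, below their negative-control means of 37.7 and 37.5. Whether the probe could read the transcript on them was not tested, so the bound is uncertain. The probe was unstable between duplicates elsewhere, with raw signals of 2000 and 11 on the SHP-/- arrays and 2794 and 356 on the double-knockout arrays of the same age. Fbxw5, an F-box gene with a bound of 17.4-fold lower in FXR-/- liver, showed the same pattern of unequal duplicates, such as 484 and 38 in double-knockout liver, and lost its call when any of the 4 arrays was left out (adjusted p 0.094 to 0.10).

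Fatty acid synthesis genes rose together. Of 15 measured genes 13 were higher, 0 lower and 2 not past the threshold, with a median of 0.697, and 12 of 14 were higher among those detected in both groups. The shares over all tested genes were 12.7% higher and 12.3% lower. Elovl6, the elongase of palmitate, had log2 intensities of 9.98 and 9.80 in FXR-/- liver against 8.18 and 8.21 in wild-type liver (1.70 ± 0.10, adjusted p = 2.5e-10). Pklr, liver pyruvate kinase, had log2 intensities of 8.59 and 8.54 in FXR-/- liver against 7.07 and 7.10 in wild-type liver (1.48 ± 0.09, adjusted p = 6.0e-10). Scd1, the stearoyl-CoA desaturase, had log2 intensities of 13.20 and 13.22 in FXR-/- liver against 12.16 and 12.00 in wild-type liver (1.13 ± 0.13, adjusted p = 2.1e-06). In each of these genes both FXR-/- arrays lay above both wild-type arrays, where 64.98% of all tested genes had groups without overlap. Pnpla3, a lipid droplet lipase, was undetected in wild type and at least 5.09-fold higher in FXR-/- liver (2.58 ± 0.13, adjusted p = 2.6e-11), and Thrsp, a lipogenic regulator, rose (0.70 ± 0.12, adjusted p = 2.3e-04). Acaca, acetyl-CoA carboxylase, rose by its brightest probe (0.60 ± 0.09, adjusted p = 5.4e-05), while a dimmer probe fell (-0.35 ± 0.12, adjusted p = 0.044). The lipogenic factor gene Mlxipl gave -0.11 ± 0.10, adjusted p = 0.46, and Srebf1 was below detection in both groups.

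Of 11 lipid storage genes 3 were higher and 8 did not pass, a share near the 25% called over all genes. Fabp5, a fatty acid binding protein of low level in adult liver, had log2 intensities of 7.86 and 7.75 in FXR-/- liver against 5.60 and 5.29 in wild-type liver and rose (2.36 ± 0.15, adjusted p = 6.2e-10), as did G0s2, an inhibitor of triglyceride lipase (0.51 ± 0.08, adjusted p = 8.2e-05), and Dgat2, the last enzyme of triglyceride synthesis (0.40 ± 0.08, adjusted p = 8.0e-04). Of the cholesterol synthesis list, 1 of 16 genes was higher, 3 were lower and 12 did not pass, with a median of -0.002. The one that rose, Insig1, encodes a sterol-responsive retention protein of the endoplasmic reticulum (0.64 ± 0.10, adjusted p = 6.8e-05). Without double-knockout replicate 2 in the fit, 3 of these genes were higher and 6 lower. Lss, Mvk and Cyp51 fell by 0.27 to 0.44 on the log2 scale, and each lost its call when any of the 4 arrays was left out (adjusted p 0.052 to 0.17 for Lss, 0.051 to 0.075 for Mvk and 0.083 to 0.25 for Cyp51). Of 15 fatty acid oxidation genes 3 were higher and 3 lower. Among them Acot3, a peroxisomal acyl-CoA thioesterase, rose (1.95 ± 0.15, adjusted p = 1.2e-08) and Fgf21, a hormone of fasting, had log2 intensities of 6.06 and 6.02 in FXR-/- liver against 7.62 and 7.59 in wild-type liver and fell (-1.57 ± 0.13, adjusted p = 4.5e-08).

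**Figure D4:**
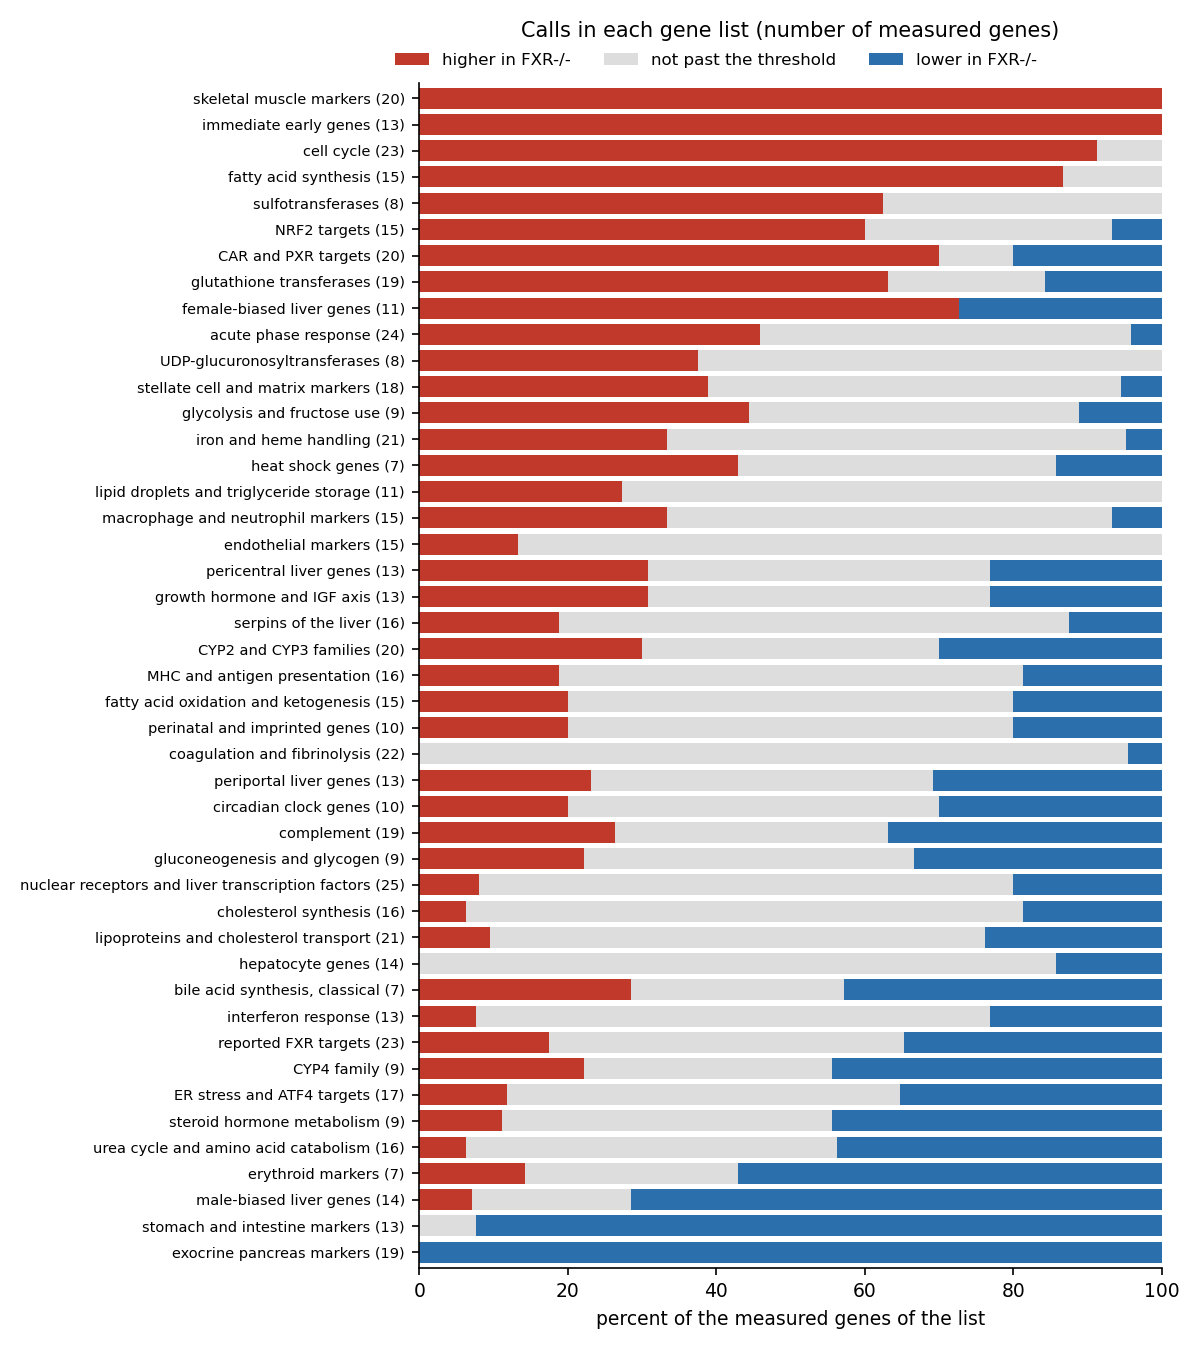
Share of the measured genes of each list that were higher in FXR-/- liver (red), not past the threshold (grey) or lower (blue), for lists with at least 7 measured genes, whose number stands in brackets. Skeletal muscle and immediate early genes are red throughout, cell cycle and fatty acid synthesis genes have no blue, and exocrine pancreas genes are blue throughout. Against these, 12.7% of all tested genes were higher and 12.3% lower.

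Genes of drug and bile acid detoxification shifted upward with large single exceptions. Of 20 measured CAR and PXR targets 14 were higher, 4 lower and 2 not past the threshold (median 0.55), beside 12.7% higher and 12.3% lower over all tested genes. Cyp2c50 had log2 intensities of 9.36 and 9.31 in FXR-/- liver against 6.19 and 5.94 in wild-type liver and rose (3.27 ± 0.17, adjusted p = 5.1e-11), while Cyp2c29, a close relative of the same subfamily, had log2 intensities of 7.66 and 7.90 in FXR-/- liver against 9.58 and 9.43 in wild-type liver and fell (-1.72 ± 0.17, adjusted p = 4.0e-07). Alas1, the first enzyme of heme synthesis, rose (1.04 ± 0.08, adjusted p = 9.9e-09). The second largest rise of any gene, after Acta1, was that of Cyp2c39, with log2 intensities of 10.35 and 10.46 in FXR-/- liver against 5.32 and 5.28 in wild-type liver (5.11 ± 0.10, adjusted p = 6.5e-17). Cyp2c genes are near-identical in sequence, so probes of this family may share transcripts and their values are uncertain. Nr1i2, the gene of PXR, fell (-0.51 ± 0.09, adjusted p = 3.9e-04).

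Glutathione transferases rose in 12 of 19 measured genes, with 3 lower and 4 not past the threshold (median 0.552), where 12.7% of all tested genes were higher and 12.3% lower. Gstm2 had log2 intensities of 12.79 and 12.66 in FXR-/- liver against 11.62 and 11.52 in wild-type liver (1.16 ± 0.07, adjusted p = 8.5e-10), Gsta2 rose (1.03 ± 0.12, adjusted p = 3.4e-06) and so did Gstm3 (0.95 ± 0.18, adjusted p = 7.4e-04). Against these Mgst1, the microsomal transferase, had log2 intensities of 7.33 and 7.73 in FXR-/- liver against 13.40 and 13.42 in wild-type liver and fell, on both arrays well below wild type (-5.88 ± 0.12, adjusted p = 9.0e-17). NRF2 targets, which answer oxidative and electrophile stress, were higher in 9 of 15, lower in 1 and not past the threshold in 5. The lists overlap. Gsta1, Gsta2, Gstm1 and Gstm3 are counted as higher here and among the transferases, and Abcc4, Gsta1 and Gstm1 also among the CAR and PXR targets. Nqo1, a quinone reductase, rose (0.97 ± 0.14, adjusted p = 3.4e-05), whereas Osgin1, an oxidative stress response gene, fell (-2.21 ± 0.10, adjusted p = 3.4e-12). Sulfotransferases were higher in 5 of 8 with 0 lower, led after Sult2a2 by Sult1c2 (1.14 ± 0.15, adjusted p = 1.0e-05).

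Sex-biased liver genes moved, on arrays whose Y-linked genes were undetected. Of 14 measured male-biased genes 1 was higher, 10 were lower and 3 did not pass, with a median of -0.856, and of 11 female-biased genes 8 were higher and 3 lower, with a median of 1.066. Beside these, 12.7% of all tested genes were higher and 12.3% lower. Among the genes detected in both groups, 1 of 12 male-biased genes was higher and 8 lower, and 7 of 8 female-biased genes were higher and 1 lower. Cyp2d9, a male-biased steroid hydroxylase, had log2 intensities of 10.95 and 10.91 in FXR-/- liver against 12.79 and 12.62 in wild-type liver (-1.78 ± 0.09, adjusted p = 4.6e-11). Cyp4a12b, a male-biased fatty acid hydroxylase, was undetected in FXR-/- liver and at least 9.75-fold lower. Elovl3, a male-biased elongase, was at least 2.54-fold lower. Cyp2a4, a female-biased steroid hydroxylase, had log2 intensities of 13.29 and 13.28 in FXR-/- liver against 11.10 and 11.19 in wild-type liver (2.14 ± 0.08, adjusted p = 2.2e-13). Against the list's direction, the female-biased Cyp2b9 had log2 intensities of 4.27 and 4.38 in FXR-/- liver against 8.82 and 8.81 in wild-type liver and was at least 15.4-fold lower (-4.49 ± 0.10, adjusted p = 4.3e-16), and Cyp2b13 was at least 3.0-fold lower. The part of sex in these values was not tested.

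Serpina1e, an alpha-1-antitrypsin paralog counted among the male-biased genes, had log2 intensities of 8.71 and 8.65 in FXR-/- liver against 13.84 and 13.80 in wild-type liver and fell (-5.14 ± 0.08, adjusted p = 3.5e-18). Its copies Serpina1a and Serpina1b are near-identical, so signal may be shared between them, and they gave -0.30 ± 0.10, adjusted p = 0.034 and 0.07 ± 0.07, adjusted p = 0.57. In the growth hormone and IGF axis Igfbp2, an IGF carrier, had log2 intensities of 7.11 and 7.19 in FXR-/- liver against 10.32 and 10.24 in wild-type liver and fell (-3.13 ± 0.10, adjusted p = 3.3e-14). Bcl6, a repressor that growth hormone lowers, had log2 intensities of 7.43 and 7.34 in FXR-/- liver against 9.63 and 9.74 in wild-type liver and fell too (-2.30 ± 0.09, adjusted p = 6.7e-13). Cux2, a female-specific repressor, was undetected in wild type and at least 2.17-fold higher (1.64 ± 0.15, adjusted p = 1.3e-07). Igfbp1, an IGF carrier that rises in fasting, rose (1.02 ± 0.20, adjusted p = 9.2e-04).

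Cell cycle genes were higher in 21 of 23 measured, with 0 lower and a median of 0.897, beside 12.7% higher and 12.3% lower over all tested genes. Among the 19 detected in both groups 17 were higher. Cdc20, the activator of the anaphase-promoting complex, had log2 intensities of 8.31 and 8.24 in FXR-/- liver against 6.24 and 6.31 in wild-type liver (a log2 difference of 2.0 ± 0.14, adjusted p = 4.9e-09). Birc5 and Cdca3, both of mitosis, rose (1.62 ± 0.14, adjusted p = 3.9e-08 and 1.37 ± 0.11, adjusted p = 3.8e-08). Cdkn1a, the inhibitor p21, rose beside them, with log2 intensities of 8.16 and 8.12 in FXR-/- liver against 6.88 and 6.76 in wild-type liver (1.32 ± 0.12, adjusted p = 1.2e-07). Ccnd1, the cyclin of growth factor entry, gave 0.11 ± 0.09, adjusted p = 0.41, and Pcna gave -0.13 ± 0.14, adjusted p = 0.53. The count was 18 or 19 of 23 with 1 array left out. The arrays of the higher group are those with the muscle transcripts described above, and a link of the cell cycle values to those transcripts was not tested.

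Immediate early genes were higher in 13 of 13 measured genes, with a median of 0.966, and 11 of them were detected in both groups. Fos had log2 intensities of 9.28 and 9.36 in FXR-/- liver against 7.02 and 7.55 in wild-type liver (2.04 ± 0.14, adjusted p = 2.7e-09), the 2 wild-type arrays being further apart than the FXR-/- pair. Jun, its partner in AP-1, had log2 intensities of 8.34 and 8.17 in FXR-/- liver against 6.58 and 6.62 in wild-type liver (1.65 ± 0.15, adjusted p = 7.5e-08). Atf3, a stress transcription factor, was undetected in wild type and at least 3.11-fold higher, and Ier3 rose (1.82 ± 0.13, adjusted p = 6.9e-09). Of 7 heat shock genes 3 were higher, with Hsph1 (0.55 ± 0.09, adjusted p = 9.0e-05) first, and 1 was lower. Of 10 clock genes 2 were higher and 3 lower, beside 12.7% higher and 12.3% lower over all tested genes. Per1 was undetected in wild type and at least 1.85-fold higher, Per2 rose (0.73 ± 0.12, adjusted p = 1.6e-04), and the clock outputs Dbp (-0.77 ± 0.11, adjusted p = 5.4e-05) and Nr1d1 (-0.68 ± 0.11, adjusted p = 1.5e-04) fell. The labels give no time of day for tissue collection.

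Acute phase genes were higher in 11 of 24 measured, lower in 1 and not past the threshold in 12 (median 0.074). Over all tested genes 12.7% were higher and 12.3% lower. Saa2, a serum amyloid A, had log2 intensities of 9.24 and 9.26 in FXR-/- liver against 6.97 and 6.86 in wild-type liver (2.34 ± 0.12, adjusted p = 2.6e-11), and Saa1 and Saa3 rose as well (1.63 ± 0.11, adjusted p = 1.2e-09 and 1.49 ± 0.09, adjusted p = 7.0e-10). Hamp2, a hepcidin gene, had log2 intensities of 12.53 and 12.55 in FXR-/- liver against 10.29 and 10.13 in wild-type liver (2.33 ± 0.09, adjusted p = 6.5e-13). The abundant acute phase protein genes Hp and Hpx gave 0.04 ± 0.09, adjusted p = 0.78 and -0.08 ± 0.08, adjusted p = 0.54. Of 22 coagulation genes 0 were higher and 1 was lower (5 lower without double-knockout replicate 2 in the fit), and complement went both ways, with 5 higher, 7 lower and 7 not past the threshold. C6 rose (1.29 ± 0.09, adjusted p = 2.0e-09), and C8b (-0.61 ± 0.08, adjusted p = 9.7e-06) and C9 (-0.64 ± 0.11, adjusted p = 2.3e-04), like it parts of the membrane attack complex, fell.

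Markers of immune and matrix cells were called in part, beside 25% of all tested genes (12.7% higher and 12.3% lower). Of 15 macrophage and neutrophil genes 5 were higher, 1 lower and 9 not past the threshold. Cd14, the endotoxin co-receptor, had log2 intensities of 6.90 and 6.96 in FXR-/- liver against 4.89 and 4.67 in wild-type liver, where 1 of the 2 arrays detected it (2.15 ± 0.17, adjusted p = 2.5e-08), and Cxcl1, a neutrophil chemokine, had log2 intensities of 10.16 and 10.18 in FXR-/- liver against 8.21 and 7.92 in wild-type liver (2.11 ± 0.12, adjusted p = 2.1e-10). Of 18 stellate cell and matrix genes 7 were higher, among them Fbln2 (1.17 ± 0.12, adjusted p = 9.3e-07) and Col1a1 (0.85 ± 0.15, adjusted p = 4.2e-04), and 1 was lower. That one, Sparc, a matrix glycoprotein, was undetected in FXR-/- liver and at least 2.87-fold lower. Endothelial markers were higher in 2 of 15 and lower in none. MHC genes were higher in 3 of 16 and lower in 3. Cd74, the class II invariant chain, rose (1.20 ± 0.10, adjusted p = 3.5e-08), and the class I genes H2-Q6 (-1.45 ± 0.12, adjusted p = 3.8e-08) and H2-T23 (-1.37 ± 0.12, adjusted p = 8.1e-08) fell, genes whose sequences differ between mouse strains.

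Amino acid and stress response genes leaned downward, where 12.7% of all tested genes were higher and 12.3% lower. Of 16 urea cycle and amino acid genes 1 was higher and 7 lower. Ass1, argininosuccinate synthase, had log2 intensities of 12.31 and 12.29 in FXR-/- liver against 13.12 and 13.16 in wild-type liver (-0.84 ± 0.07, adjusted p = 4.4e-08), and Prodh, proline dehydrogenase, fell (-0.72 ± 0.11, adjusted p = 4.3e-05). Of 17 ER stress and ATF4 targets 2 were higher and 6 lower. Chac1, which degrades glutathione, fell (-1.79 ± 0.13, adjusted p = 6.4e-09), as did the pseudokinase Trib3 (-1.69 ± 0.09, adjusted p = 1.0e-10), while Asns, asparagine synthetase, rose (1.29 ± 0.12, adjusted p = 1.6e-07). Zonal genes did not shift as a block: 4 of 13 pericentral genes were higher and 3 lower, and 3 of 13 periportal genes were higher and 4 lower. Pigr, the receptor that carries IgA into bile, had log2 intensities of 7.96 and 7.88 in FXR-/- liver against 10.10 and 10.14 in wild-type liver and fell (-2.20 ± 0.09, adjusted p = 2.9e-12), and Rhbg, an ammonium transporter of pericentral cells, rose (1.39 ± 0.13, adjusted p = 1.0e-07).

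Of 25 nuclear receptors and liver transcription factors 2 were higher, 5 lower and 18 not past the threshold, a share near the 25% called over all genes. Ppara, the fatty acid sensor, was among the lower ones (-0.47 ± 0.11, adjusted p = 0.0032). Of 9 steroid hormone genes 1 was higher and 4 lower, with Hsd3b5 (-1.09 ± 0.12, adjusted p = 2.1e-06) and Hsd17b6 (-1.09 ± 0.14, adjusted p = 9.7e-06), both steroid dehydrogenases, the furthest down. Of 21 iron and heme genes 7 were higher and 1 lower. Tfrc, the transferrin receptor, had log2 intensities of 9.37 and 9.39 in FXR-/- liver against 8.09 and 8.06 in wild-type liver (1.31 ± 0.13, adjusted p = 3.2e-07), and Alad, an enzyme of heme synthesis, rose (0.90 ± 0.08, adjusted p = 1.6e-07). Of 16 liver serpins 3 were higher and 2 lower. Serpina6, the corticosteroid carrier, had log2 intensities of 11.67 and 11.60 in FXR-/- liver against 9.32 and 9.56 in wild-type liver (2.19 ± 0.13, adjusted p = 2.1e-10), and Serpina7, the thyroxine carrier, rose (1.15 ± 0.11, adjusted p = 1.2e-07). Of 13 interferon response genes 1 was higher (Igtp, 0.78 ± 0.09, adjusted p = 1.9e-06), 3 were lower and 9 did not pass.

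Beta-globin transcripts traded places. Hbb-b2 had log2 intensities of 9.91 and 9.99 in FXR-/- liver against 4.97 and 4.89 in wild-type liver (5.02 ± 0.10, adjusted p = 9.0e-17), and Hbb-bt had log2 intensities of 4.86 and 4.72 in FXR-/- liver against 7.93 and 7.92 in wild-type liver, at least 8.29-fold lower (-3.14 ± 0.14, adjusted p = 4.0e-12). Neither pair overlapped. These genes belong to different beta-globin haplotypes of inbred mice, and the part of strain background in the values was not tested. Of 7 measured erythroid markers 1 was higher and 4 lower, with the carbonic anhydrase Car1 (-0.72 ± 0.11, adjusted p = 6.5e-05) among the lower ones. Summed over the 7 measured erythroid genes the raw signal was 15652.3 and 16299.1 in FXR-/- liver against 14713.2 and 14578.4 in wild-type liver. Ang, a secreted ribonuclease, had log2 intensities of 5.45 and 5.67 in FXR-/- liver against 10.77 and 10.82 in wild-type liver (-5.24 ± 0.12, adjusted p = 2.4e-16), and was detected in both groups. Lipa, the acid lipase of lysosomes, had log2 intensities of 5.24 and 5.42 in FXR-/- liver against 9.62 and 9.68 in wild-type liver (-4.32 ± 0.13, adjusted p = 1.7e-14), also detected in both. Prap1, a secreted acidic protein of gut and liver, was at least 19.5-fold lower.

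Genes that flank a targeted locus can come from the strain in which the deletion was made, so the 20 nearest measured genes on each side of Nr1h4 were read. Of these 40, 6 were called, 3 higher and 3 lower, against 25% of all tested genes. Amdhd1, an enzyme of histidine breakdown, had log2 intensities of 9.20 and 9.36 in FXR-/- liver against 10.83 and 10.80 in wild-type liver (-1.54 ± 0.08, adjusted p = 5.1e-11), and it was also lower at 5 weeks (-1.71 ± 0.08) and in the SHP-null pair (-1.39 ± 0.08). Ndufa12, a subunit of respiratory complex I, rose in all 3 comparisons (0.61 ± 0.09, adjusted p = 2.5e-05, then 0.66 ± 0.09 and 0.66 ± 0.09). Mybpc1, a muscle gene, was undetected in wild type at 3 weeks and went the other way at 5 weeks (-1.53 ± 0.12), as the muscle markers did. The part of a flanking strain segment in these values was not tested.

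Loss of FXR was also measured in a pair at 5 weeks and, at 3 weeks, in a pair without SHP, and neither pair shares an array with the comparison above. Over the same 7467 genes, 1310 (17.5%) were called between FXR-/- and wild type at 5 weeks and 1952 (26.1%) between double-knockout and SHP-/- liver at 3 weeks. In the same direction, 660 genes were called at 3 and at 5 weeks, which is 35.35% of the 1867 genes called at 3 weeks and 50.38% of those called at 5 weeks, and 112 were called in opposite directions. With the SHP-null pair 865 genes were shared, 46.33% of the 1867 and 44.31% of the 1952, and 92 were opposite. In all 3 comparisons 370 genes were called in 1 direction, 192 higher and 178 lower.

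The difference between the ages was tested itself, and 775 of 7709 genes (10.1%) passed. Age and slide coincide and cannot be told apart. The calls included 19 of 20 muscle and 19 of 19 pancreas genes, with list medians of 2.059 at 3 weeks and -3.155 at 5 weeks for muscle, and -1.544 and 1.002 for pancreas. At 3 weeks, 13 of the muscle genes were undetected in wild type and 14 of the pancreas genes in FXR-/- liver. Those genes entered through the group where they are high and could only differ 1 way at 3 weeks, which sets part of these counts and medians. Cell cycle genes had a median of 0.897 at 3 weeks and -0.054 at 5 weeks, with 16 of 23 past the test of the difference. These genes were kept by their detection at 3 weeks. At 5 weeks their mean log2 level was 5.52 and 5.48 in FXR-/- liver and 5.59 and 5.54 in wild-type liver. The lowest detected levels there were 4.91 to 4.94, so a change at 5 weeks could be missed. Cdkn1a was 1.32 at 3 weeks and -1.72 ± 0.12 at 5 weeks (difference adjusted p = 2.6e-10). Immediate early genes had medians of 0.966 and 0.116, and 9 of 13 passed. Cyp7a1 was 2.45 and 2.88 ± 0.10, a difference that did not pass (adjusted p = 0.073), and Abcb11 was -0.96 and -0.95 ± 0.09 (0.97). Sult2a2 rose further at 5 weeks (3.94 ± 0.10, 6.5e-10). Slc51b was -1.14 at 3 weeks and -0.25 ± 0.11 at 5 weeks (7.5e-04), where the value at 3 weeks is against FXR-/- arrays that did not detect it. Dbp, the clock output, was -0.77 at 3 weeks and 2.29 ± 0.11 at 5 weeks (1.1e-10).

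The difference between livers with and without SHP was tested likewise at 3 weeks, and 918 of 7852 genes (11.7%) passed. Without FXR-/- replicate 2 the count was 608, and without double-knockout replicate 2 it was 1153, with Cyp7a1 at 0.83, Thrsp at -2.02 and Scd1 at -0.38 in the SHP-null pair. Cyp7a1 rose by 2.45 with SHP present and by less in SHP-null liver (1.03 ± 0.10), and this difference passed (adjusted p = 2.0e-06), as it did for Cyp8b1 (1.19 and 0.28 ± 0.08, adjusted p = 3.1e-05). Only the pair with SHP held purchased wild-type mice, and within these pairs the Y-linked Eif2s3y was undetected only on the FXR-/- arrays. SHP, colony and the Y-linked signal coincide in this test and cannot be told apart. Of 15 fatty acid synthesis genes 13 passed the test of the difference, with a list median of 0.697 with SHP present and -0.167 in SHP-null liver. The mean log2 level of the list was 9.36 and 9.35 in wild-type liver and 10.215 and 10.233 in FXR-/- liver. It was 9.94 and 9.92 in SHP-/- liver and 9.68 and 9.65 in double-knockout liver. The reference of the SHP-null pair thus already lay above wild type, and double-knockout liver still did. Thrsp was 0.70 and -1.79 ± 0.12 (adjusted p = 9.5e-09), and Scd1 was 1.13 and -0.60 ± 0.13 (2.6e-06). Fgf21 was -1.57 and 1.35 ± 0.13 (4.4e-09), though neither SHP-/- array detected it. Abcb11, at -0.96 and -1.18 ± 0.09, did not pass (0.32), nor did Sult2a2 (1.51 and 1.52 ± 0.10, 0.99). Cell cycle genes had medians of 0.897 and 0.884, and 6 of 23 passed. Muscle markers were again higher in the FXR-null livers of the SHP-null pair, with a list median of 2.503, and pancreas markers had a list median of 0.018 there. The pancreas list had a mean log2 level of 5.35 and 5.35 on the double-knockout arrays and 5.28 and 5.31 on the SHP-/- arrays. The lowest detected levels there were 4.81 to 4.89, so that median rests largely on probes near background. Eif2s3y was -3.42 with SHP present and -0.03 ± 0.20 in SHP-null liver (1.2e-07), the first against FXR-/- arrays that did not detect it.

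Some of the largest falls were smaller in SHP-null liver or not seen there. Mgst1 was -5.88 with SHP present and -0.63 ± 0.12 in SHP-null liver (adjusted p = 2.7e-13), and Serpina1e was -5.14 and -0.06 ± 0.08 (5.0e-15). Mgst1 had a log2 level of 12.85 and 12.46 on the double-knockout arrays and 13.33 and 13.25 on the SHP-/- arrays. Serpina1e had 13.67 and 13.72 on the double-knockout arrays and 13.87 and 13.63 on the SHP-/- arrays. Lipa was -4.32 and -0.42 ± 0.13 (4.2e-11), and without double-knockout replicate 2 the value in the SHP-null pair was -0.14 (adjusted p = 0.33). Ang was -5.24 and -4.89 ± 0.12, and that difference did not pass (0.21), though it did without double-knockout replicate 2 (0.0074). Of the 101 named genes whose difference passed, 91 also did so without that array.

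**Figure D5:**
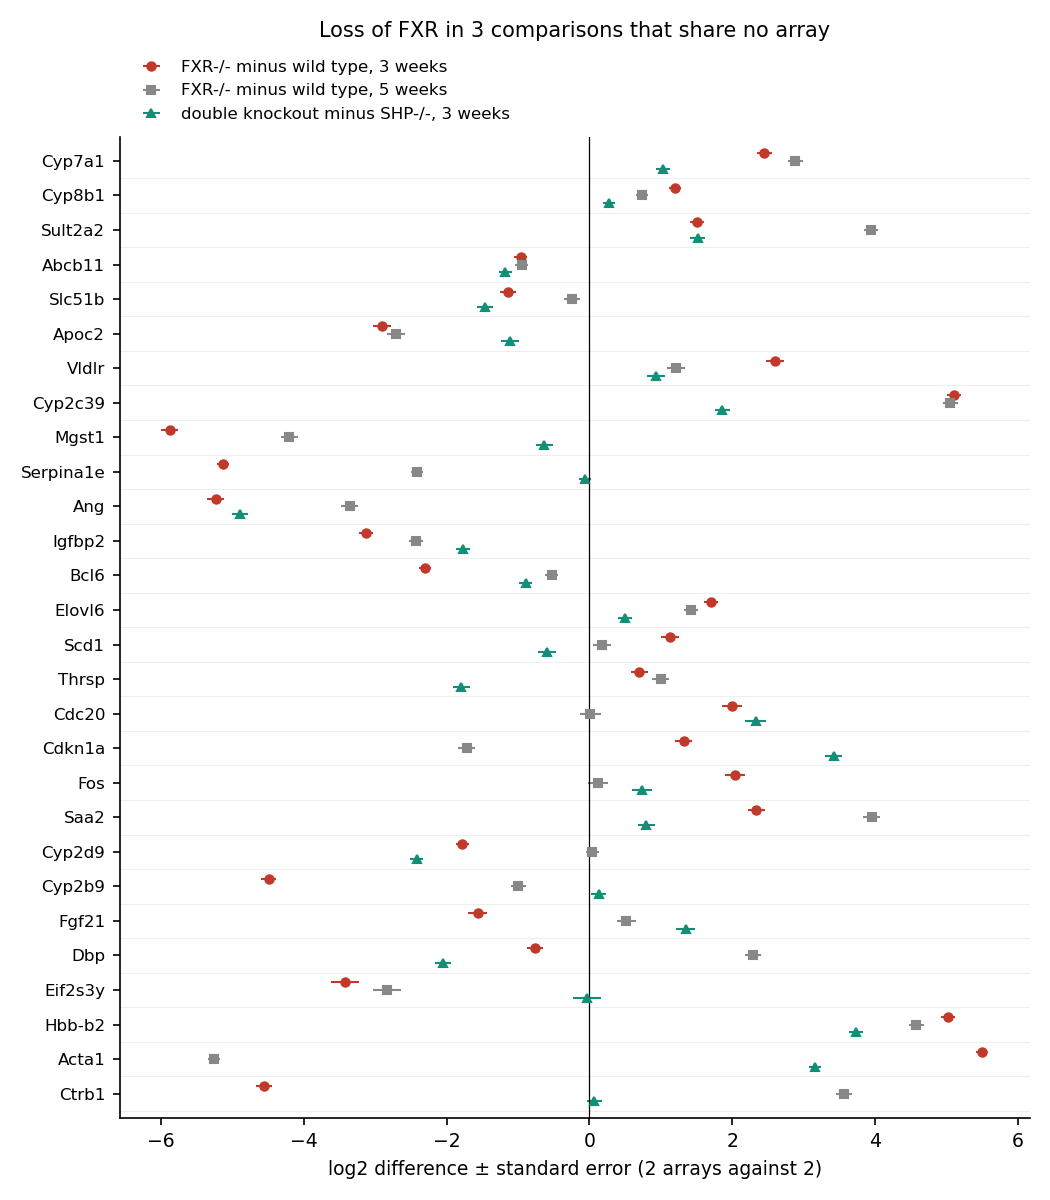
Log2 difference with standard error (2 arrays against 2) for 28 of the named genes in FXR-/- minus wild type at 3 weeks (red circles), FXR-/- minus wild type at 5 weeks (grey squares) and double knockout minus SHP-/- at 3 weeks (green triangles). Abcb11, Apoc2, Ang and Igfbp2 lie left of 0 and Cyp7a1, Cyp2c39 and Hbb-b2 right of 0 in all 3, while Acta1, Ctrb1, Dbp and Cdkn1a change side.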

How the data were processed

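RNA from mouse liver was measured on Illumina bead arrays, 2 for each of 8 groups of genotype and age, and the 4 arrays of 3-week FXR-/- and wild-type mice form the comparison. Mean bead intensity per probe was deposited as a BeadStudio export without normalization, per the file headers (BSGX 3.2.3), beside a detection p-value for each probe that the authors' software computed. The authors also deposited processed values on a log2-like scale, whose transform is not given in the sources used here. Within each array their order was that of the raw column. They served as an alternative.

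The intensities were background-corrected, offset by 16, quantile-normalised and log2-transformed with limma 3.58.1 (neqc, R 4.3.3). Probes detected at p under 0.01 on both arrays of either group were kept. Through the platform annotation, updated by RefSeq, a single symbol could be given to 20984 of the 24613 probes and none to 3628, while 1 probe matched several. The brightest kept probe stood for a gene. A linear model with 1 mean for each of the 8 groups was fitted over all 16 arrays, which share 1 estimate of the spread (8 residual degrees of freedom), with trended empirical Bayes moderation. P-values were adjusted by Benjamini-Hochberg over all tested genes and called at 0.05. Differences between effects were contrasts of that model. No count of reads lies behind an array, and the number of arrays limits the precision. Where a gene was undetected on both arrays of a group, the fold was bounded with the lowest signal detected on each array.

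The members and gene lists were chosen with earlier results of these data known. Named were Nr1h4 and Nr0b2, the 8 largest rises and falls without overlap, every measured bile acid gene, up to 4 called genes per other list, sex chromosome genes, the 10 largest bounds, the 5 largest differences each way between ages and between SHP backgrounds, and called neighbours of Nr1h4. Acaca, Alb, Apoa2, Ccnd1, Hp, Hpx, Lipa, Mlxipl, Pcna, Serpina1b and Ttr fall outside that rule and were chosen after their values were seen. The replicate numbers did not pair arrays, with a correlation of -0.03 between the deviations of equally numbered arrays of both groups. Alternatives covered background, scaling, filters, probe choice, the arrays in the fit, array weights and each array left out. Slide coincided with age and could not be fitted beside it.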

Additional observations from a re-analysis of the deposited data

Results flagged for a closer look

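The effect of FXR loss at 3 weeks was set against its effect at 5 weeks, and with SHP present against SHP-null liver at 3 weeks, by a test of each difference in the linear model. Of 188 named genes 96 passed the age test and 101 the SHP test (limma, adjusted p under 0.05), against 10.1% and 11.7% of all genes tested. Part of the named genes were chosen as the largest of these differences, so the share is set by the choice. The 26 and 28 of these whose effects differed by at least 4-fold follow, as log2 differences between the effects.

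Between the ages the effect was more positive at 3 weeks, with a rise at 3 weeks and a fall at 5 weeks, for the muscle genes Acta1 (10.76), Atp2a1 (9.80), Tnni2 (9.53), Fabp3 (8.5), Tnnc2 (7.57), Tnnt3 (7.35) and Mybpc1 (2.56). It was also more positive at 3 weeks for Cdkn1a (3.04), the male-biased Elovl3 (2.57) and Cd14 (2.20). It was more negative at 3 weeks for the pancreas and gut genes Ctrb1 (-8.12), Tff2 (-7.47), Reg1 (-5.85), Zg16 (-5.46), Prap1 (-4.92), Gkn3 (-4.76), Spink1 (-3.0) and Tff1 (-2.68). Among liver genes it was lower at 3 weeks for Cyp2b9 (-3.49), Serpina1e (-2.73), Sult2a2 (-2.44) and Cyp2b13 (-2.29), for Fgf21 (-2.08) and for the clock output Dbp (-3.06). Apoh (-7.00) and Fbxw5 (-6.57) complete the group, both with probes that read unequally between duplicates of other groups.

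With SHP present the effect was more positive than in SHP-null liver for Chrna4 (3.62), a nicotinic receptor subunit, and Dct (3.49), a melanin enzyme. The same held for Cyp2c39 (3.25), Cyp2c50 (2.75), the lipogenic Thrsp (2.49) and Pnpla3 (2.04), and for Acta1 (2.34). It was more negative for the liver enzymes Mgst1 (-5.25), Cyp2b9 (-4.62), Cyp2c29 (-2.60), Cyp2b13 (-2.33) and Cyp4a12b (-2.28), and for Serpina1e (-5.08). Genes of pancreas and gut were Tff2 (-6.40), Prap1 (-4.95), Ctrb1 (-4.63), Reg1 (-4.59), Gkn3 (-4.50), Zg16 (-4.36), Tff1 (-2.71) and Lgals4 (-2.33). The others were Apoh (-9.25), Fbxw5 (-6.33), the Y-linked Eif2s3y (-3.39), Fgf21 (-2.91), Hbb-bt (-2.75), Sparc (-2.40) and Cdkn1a (-2.10).

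Where a gene was undetected on both arrays of a group, its value rests on a probe at background and is no exact difference. That holds for 17 of the 26 genes between the ages, all but Acta1, Tnnc2, Cdkn1a, Sult2a2, Serpina1e, Spink1, Dbp, Gkn3 and Tff2. Between the SHP backgrounds it holds for 16 of the 28, namely Pnpla3, Cyp4a12b, Lgals4, Cyp2b13, Sparc, Tff1, Hbb-bt, Fgf21, Eif2s3y, Zg16, Reg1, Cyp2b9, Ctrb1, Prap1, Fbxw5 and Apoh. Marker lists of other tissues moved with many of these genes, and their part in the differences was not tested.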

How the results depend on the processing

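Over 21 alternatives the 188 named genes gave 3919 values, of which 3775 kept their direction and their side of the threshold, 137 (35 genes, 97 of the values with an array left out) no longer passed, 7 (Slc27a2 and Slc10a1) newly passed and 0 changed sign. The count of genes changed at least 2-fold, 331, was 196 with an offset of 50, 161 with the authors' processed values and 213 when only probes detected on all 4 arrays were kept, where on/off genes drop out by construction. The age difference then passed in 499 genes, against 775. With 1 array left out, 668 to 700 genes were higher, 584 to 633 lower and 329 to 337 changed 2-fold, the age difference passed in 579 to 600 and the SHP difference in 608 to 649. Scaling by the median alone gave 766 higher and 996 lower genes (43.5% higher, against 50.9%) and, for the SHP difference, 291 and 526 (35.6%, against 48.5%), and the cause was not tested. With the replicate number as a block, 953 genes were higher, 918 lower and 331 changed 2-fold, the age difference passed in 778 and the SHP difference in 908. Of the named genes Cyp51 alone lost its call there (adjusted p = 0.05374), and the numbers did not pair the arrays. Across the alternatives 16 to 21 cell cycle, 11 to 13 fatty acid synthesis and 10 to 13 immediate early genes were higher. Among probes detected on all 4 arrays 7 muscle, 5 pancreas and 4 stomach and intestine genes were left. Leaving out double-knockout replicate 2 at both ages, chosen after seeing the data, gave 1195 higher and 1217 lower genes, 1144 for the age and 1153 for the SHP difference, and 1822 called in the SHP-null pair, against 1952. Slide coincides with age, so a fit with slide as a block was not run. Dim probes limit the rest: SHP, Srebf1 and albumin could not be read.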

Other observations

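In all 3 comparisons of FXR loss, 49 genes changed at least 2-fold in the same direction. Of these 10 (20.41%) were on chromosome 14, which holds 266 of the 7464 placed genes (3.56%). They were Gdf2, Fam25c, Lrit1, Ang, Ndrg2, Supt16, Psmb5, 1700123O20Rik, Fitm1 and Tsc22d1. Nr1h4 itself lies on chromosome 10. Between Ang and Fitm1 30 genes were measured, 13 were called at 3 weeks and 7 changed at least 2-fold, 6 of them in all 3 comparisons. Over all tested genes 25% were called and 4.43% changed at least 2-fold. The 2-fold count moves with the scaling, from 331 genes to 196 with an offset of 50 and 161 with the authors' processed values. This stretch was chosen after its values were seen and was given no test. Ndrg2, a stress-responsive gene of the same family as the differentiation gene Ndrg1, had log2 intensities of 11.24 and 11.15 in FXR-/- liver against 12.69 and 12.85 in wild-type liver (-1.58 ± 0.16, adjusted p = 5.3e-07). Psmb5, a catalytic subunit of the proteasome, had log2 intensities of 8.20 and 8.19 in FXR-/- liver against 9.74 and 9.80 in wild-type liver (-1.57 ± 0.09, adjusted p = 1.1e-10). Supt16, a histone chaperone subunit, had log2 intensities of 4.49 and 4.41 in FXR-/- liver against 8.17 and 8.11 in wild-type liver, was undetected in FXR-/- liver and at least 9.61-fold lower there (-3.69 ± 0.11, adjusted p = 1.2e-14). The cause was not tested.

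Of 1160 genes with more than 1 kept probe, 5 had probes called in opposite directions. Lrrc61 had a probe at 0.79 and another at -1.69, and Acaca, Actb, Angptl6 and Ddo were the others. Of 1124 kept probes without a gene name 137 were higher and 101 lower in FXR-/- liver (21.17%). Igfbp2, Vldlr and Apoc2 were called in 1 direction at both ages and in SHP-null liver, at -3.13, -2.44 ± 0.10 and -1.77 ± 0.10 for Igfbp2, 2.60, 1.21 ± 0.13 and 0.93 ± 0.13 for Vldlr, and -2.91, -2.71 ± 0.12 and -1.11 ± 0.12 for Apoc2. Each value is FXR-null minus FXR wild-type, at 3 weeks, at 5 weeks and in SHP-null liver.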
